A study of Mus musculus with 6 samples.

Results

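The transcriptome of 1 mouse skin tumour was compared with that of 1 healthy skin biopsy over all 23726 gene models of the table, and each difference was sorted by the state of the same gene in 2 papillomas. A difference was an early one when both papillomas already showed it, a late one when neither did, and a transient one when both papillomas went past the tumour. At least 1 count in skin or tumour was found for 18901 gene models, 11114 reached 10 CPM (counts per 1000000 counts, scaled as described with the processing) in either library, and 1593 of those differed at least 4-fold.

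DMBA is a mutagenic hydrocarbon that starts tumours in mouse skin, and TPA is a phorbol ester that, painted on repeatedly, makes the started cells grow into benign papillomas. Some papillomas progress to squamous cell carcinoma. Healthy epidermis has a basal layer of dividing keratinocytes that make the keratins of Krt5 and Krt14, and suprabasal layers that switch to Krt1 and Krt10 and build the cornified envelope. A skin biopsy also holds hair follicles, sebaceous glands, fat and the thin muscle under the skin.

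The healthy skin was a total skin biopsy with no treatment named in the labels. The papillomas and the tumour were induced by DMBA and TPA, and the labels call the papillomas distinct. The cultures mSCC-20 and mSCC-38, cells taken from a DMBA/TPA tumour and labelled non-tumorigenic and tumorigenic, gave 1 library each and served here only as a further readout. Strain, sex, age, treatment times and histology are not stated in the labels, nor is it stated whether the biopsies came from separate mice. The tumour is therefore called a tumour, as in the labels. All ratios to skin rest on the same skin library, so whatever is particular to that biopsy enters the tumour and both papilloma ratios alike.

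With 1 library on each side, the tumour against skin comparison has no replicate error and no p-value. A gene met the rule of size when its tumour to skin ratio was at least 4-fold, a log2 ratio of 2 with 0.5 CPM added to each side, and its higher library reached 10 CPM. Total counts were 41462120 for skin, 25140489 and 29982455 for the papillomas and 42992597 for the tumour. Where a gene had a count of 0, its level may be as high as 3 counts, or 0.0604 CPM in skin and 0.0712 CPM in the tumour. The 95% intervals of ratios were exact (Clopper-Pearson), and like these upper limits they cover only the counting error. RNA integrity numbers were 7.5 for skin, 8.4 and 8.2 for the papillomas and 9.1 for the tumour, so RNA quality moved with the comparison and its part in the results was not tested.

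The labelled tissues were checked against their defining markers. The basal keratin gene Krt14 was counted at 1865 CPM in skin, 24632 and 17725 CPM in papillomas 1 and 2, and 13601 CPM in the tumour, and Trp63, which encodes the keratinocyte regulator p63, at 311, 380, 442 and 533 CPM in the same order. Both keratinocyte markers were well counted in every biopsy. The skin biopsy also carried hair, muscle and fat genes in bulk, with summed levels of 10903 CPM over 19 hair shaft genes and 14020 CPM over 16 skeletal muscle genes. In the tumour these sums were 21.69 and 889 CPM. Fewer cells of a type and less RNA per cell cannot be told apart in bulk libraries.

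Of the 11114 gene models at 10 CPM, 581 (5.23%) were at least 4-fold higher in the tumour and 1012 (9.11%) at least 4-fold lower. The only pair of libraries with the same label, papilloma 1 and papilloma 2, gave a measure of how often the rule is met inside 1 group. There, 117 of 9953 models (1.18%) met it, 108 of them higher in papilloma 2. Differences of at least 16-fold were seen for 147 higher and 343 lower genes, and of at least 64-fold for 45 and 111. Among the genes meeting the rule, 6 had no count in skin and 12 none in the tumour.

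The split of higher against lower genes depended on the scaling. The median log2 ratio over the 11114 models was 0.11 with the scaling used here, 0.05 with DESeq2 size factors and -0.21 when libraries were scaled by their total counts. The share of higher genes was 36.5%, 34.6% and 26.3% in the same order, and the counts under total-count scaling were 451 higher and 1262 lower. Close to the threshold, Gclm (2.000) and Sdcbp (2.001) lay just inside on the higher side, and Srgn (1.99) and Arpc2 (1.99) just outside. On the lower side Ramp2 (-2.004) and Tmem229b (-2.004) lay just inside, and Fam174b (-1.99) just outside.

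Of the 581 higher genes, 159 (27.4%) were early, 174 (29.9%) late and 40 (6.9%) transient. A further 204 (35.1%) were intermediate, the remainder that met no other class, so that 1 papilloma could lie outside the class limits. In 4 genes the papillomas split, one showing the difference and the other not. Of the 1012 lower genes, 319 (31.5%) were early, 213 (21%) late, 2 transient, 470 (46.4%) intermediate and 8 split. The early higher genes had a median log2 ratio to skin of 3.28 and 2.92 in papillomas 1 and 2 and 3.82 in the tumour. The late higher genes stood at 0.21, 0.02 and 2.57, and the transient higher genes at 7.56, 7.19 and 4.09. These medians describe classes that were formed from the same ratios.

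**Figure D1:**
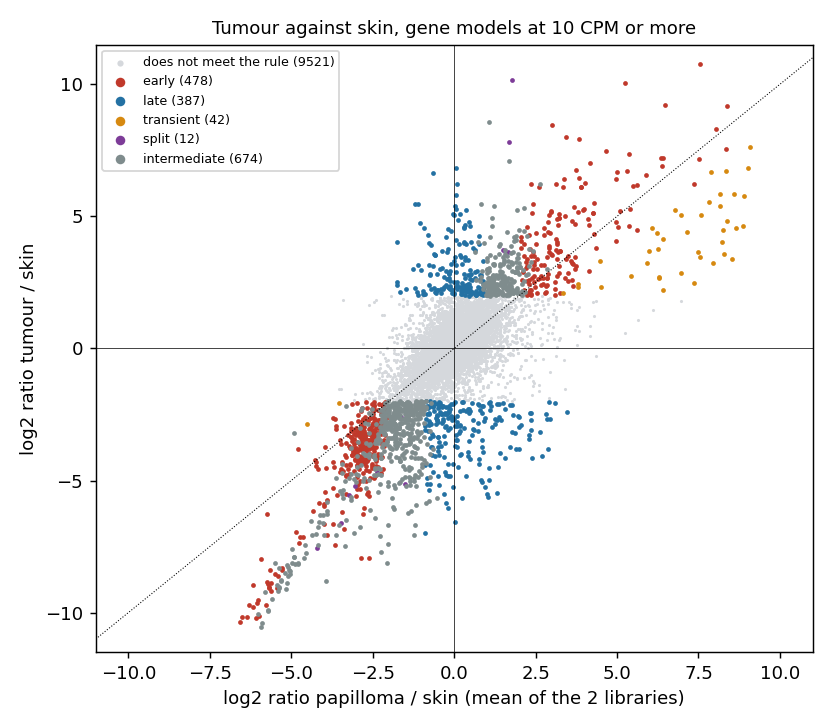
Each point is 1 gene model with at least 10 CPM in skin or tumour; the x axis is the mean log2 ratio of the 2 papillomas to skin and the y axis the log2 ratio of tumour to skin, with 0.5 CPM added. Colours mark the classes, the dotted line marks equal ratios, early genes (159 higher, 319 lower) lie at the upper right and lower left, late genes (174 and 213) lie near or beyond the vertical line at 0, and the 40 transient higher genes lie to the right of the dotted line.

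Promoters of a few members are shown first. They are examples of an early course (matrix protease genes), a transient one (Sprr2 genes) and a late one (Gbp2, Serpinb9 and Tgtp1). The sequences are from RefSeq on GRCm38.p6, end at the base before the gene's start and are written on the strand of the gene. The early higher matrix protease genes Mmp13 (chr9:7272394-7272513), Mmp10 (chr9:7502222-7502341) and Mmp12 (chr9:7347254-7347373) each held the AP-1 type motif TGANTCA within 120 bases of the start. Capitals mark that motif and, where present, TATAAA.
Mmp13: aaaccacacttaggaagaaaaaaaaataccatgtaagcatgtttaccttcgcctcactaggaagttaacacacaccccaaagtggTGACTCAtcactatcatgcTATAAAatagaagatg
Mmp10: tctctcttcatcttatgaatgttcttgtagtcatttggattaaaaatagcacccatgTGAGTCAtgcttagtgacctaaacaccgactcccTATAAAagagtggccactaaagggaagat
Mmp12: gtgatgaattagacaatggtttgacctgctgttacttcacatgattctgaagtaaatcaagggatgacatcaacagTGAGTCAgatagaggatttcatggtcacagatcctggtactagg
The motif began 35, 63 and 44 bases before the start, and TATAAA was found 16 bases before it in Mmp13 and 29 bases before it in Mmp10.

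The transient genes Sprr2d (chr3:92338930-92339139) and Sprr2i (chr3:92407781-92407990), neighbours that encode small proline-rich proteins of the cornified envelope, are shown with 210 bases to let the copies be compared.
Sprr2d: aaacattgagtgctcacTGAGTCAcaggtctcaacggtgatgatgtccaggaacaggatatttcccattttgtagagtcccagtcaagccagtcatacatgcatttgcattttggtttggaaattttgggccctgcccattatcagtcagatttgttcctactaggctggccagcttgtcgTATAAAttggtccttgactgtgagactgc
Sprr2i: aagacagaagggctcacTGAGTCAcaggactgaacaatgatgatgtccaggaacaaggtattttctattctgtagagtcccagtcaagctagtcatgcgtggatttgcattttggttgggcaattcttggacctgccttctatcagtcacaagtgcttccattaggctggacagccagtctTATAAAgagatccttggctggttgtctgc
Both held TGANTCA 193 bases and TATAAA 29 bases before the start, and 163 of the 210 bases were identical position by position. These stretches lie before the gene's start, and the transcripts of the copies were not compared. Whether reads of this family were shared between copies in the authors' counting is not known, so single Sprr2 values are uncertain.

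The late higher genes Gbp2, a GTPase gene (chr3:142620553-142620662), Serpinb9, which encodes an inhibitor of the cytotoxic protease granzyme B (chr13:33004431-33004540), and Tgtp1, another GTPase gene (chr11:48992247-48992356, minus strand), held a pair of TTTC blocks with any 2 bases between them, the core letters of an interferon-stimulated response element. Capitals mark it, and in Tgtp1 it lies on the other strand, so that GAAA blocks are seen.
Gbp2: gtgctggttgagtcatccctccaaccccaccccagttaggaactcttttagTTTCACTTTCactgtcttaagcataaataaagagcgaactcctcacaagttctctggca
Serpinb9: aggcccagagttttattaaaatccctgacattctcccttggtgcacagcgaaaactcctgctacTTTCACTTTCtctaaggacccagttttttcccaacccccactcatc
Tgtp1: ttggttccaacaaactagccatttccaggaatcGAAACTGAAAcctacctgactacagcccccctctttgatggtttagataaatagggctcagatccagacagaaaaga
The motif began 59, 46 and 77 bases before the start. The Gbp2 stretch also holds a TGANTCA match, left in lower case.

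Each motif was searched on both strands in the 250 bases before to 50 bases after the start of every gene with a RefSeq promoter, 7993 of the 11114 models at 10 CPM. TGANTCA was found in 7.0% of all those genes, in 15 of 95 early higher genes (15.8%), 10 of 120 late higher genes (8.3%) and 6 of 29 transient higher genes (20.7%). On the lower side it was found in 26 of 218 early genes (11.9%) and 22 of 153 late genes (14.4%). The paired TTTC motif was found in 3.5% of all genes and in 14 late higher genes (11.7%), against 3 early higher genes (3.2%). It was also found in 2 transient higher genes (6.9%), 7 early lower genes (3.2%) and 4 late lower genes (2.6%). TATAAA was found in 10% of all genes and in 26.3%, 18.3% and 34.5% of the early, late and transient higher genes. On the lower side it was found in 24.3% of the early and 19.6% of the late genes. The related motif TGACGTCA was found in 3.6% of all genes and in 0 early higher genes. TGANTCA and TGACGTCA have no overlap with each other, and a match describes the letters only.

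The early higher genes with the largest ratios were epithelial genes of mucosal rather than epidermal surfaces, and secreted proteases. Krt13, which encodes a keratin of the oral and oesophageal lining, was counted at 2.19 CPM in skin, 1063 and 235 CPM in papillomas 1 and 2 and 4636 CPM in the tumour (chromosome 11, 99978910 to 99982809 on mm9). The tumour level was 2114 times that of skin (95% interval 1753 to 2575). The gene was at low level in skin and high in every lesion, highest in the tumour.

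Psca, which encodes a small cell-surface protein of glandular and mucosal epithelia, followed the same order with 1.41, 113, 45.7 and 2037 CPM. Its ratio was 1447 (1145 to 1856). Sprr3, an envelope gene of mucosal epithelium, was counted at 0.966 CPM in skin, 1105 and 218 CPM in the papillomas and 849 CPM in the tumour. Its ratio was 879 (663 to 1193), with papilloma 1 above and papilloma 2 below the tumour. Tmprss11bnl, a gene of the airway-type membrane proteases, read 1.45, 564, 455 and 621 CPM, so the papillomas had most of the tumour's level. The skin levels of Krt13 and Psca were 0.0473% and 0.0691% of the highest library. That is within the level at which hair genes were still counted in libraries where they were all but gone, with an upper quartile of 0.0858% and a highest value of 0.29% in the tumour. The skin levels of Sprr3 (0.0874%), Mmp13 (0.125%) and Tmprss11bnl (0.233%) were also under that highest value, so the sizes of all 5 ratios are not exact.

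The matrix protease list held 18 members, of which 15 reached 10 CPM, 9 met the rule as higher and none as lower. Of the 9, 7 were early and 2 intermediate. The median log2 ratio over the list was 1.85, 1.21 and 2.62 in papilloma 1, papilloma 2 and tumour, beside -0.03 in the tumour over all models with a count. Mmp13, which encodes a collagenase, was counted at 1.43, 223, 128 and 1145 CPM in skin, papilloma 1, papilloma 2 and tumour, a ratio of 802 (635 to 1026). Mmp12, the macrophage elastase gene, stood at 0.583, 12.1, 9.01 and 75.2 CPM. In both genes the lesions lay far above skin and the tumour above both papillomas.

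Mmp10, which encodes stromelysin-2, was counted at 0.362, 47.7, 17.5 and 30.9 CPM, and Mmp9, a gelatinase gene, at 4.71, 233, 121 and 127 CPM. Here the tumour did not exceed papilloma 1. Adam8, a membrane protease gene, read 10.1, 124, 146 and 433 CPM, highest in the tumour.

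The inflammatory cytokine and chemokine list held several early genes. Of its 26 members, 16 reached 10 CPM, 12 met the rule as higher (8 early, 1 transient and 3 intermediate) and 1 as lower. Cxcl3, a neutrophil-attracting chemokine gene, was counted at 0.282, 12.8, 8.79 and 192 CPM in skin, papilloma 1, papilloma 2 and tumour. Il24, a cytokine gene of the interleukin 10 family, was counted at 0.262, 53.8, 73.3 and 91.8 CPM. Il1b, which encodes interleukin 1 beta, stood at 1.65, 38.1, 23.3 and 75.6 CPM. All 3 were lowest in skin and highest in the tumour. Other members peaked in the papillomas without meeting the rule, such as Il33, an alarmin gene, at 48.1, 617, 294 and 102 CPM, and Il1f6, of the interleukin 1 family, at 3.34, 299.7, 232 and 10.1 CPM. The member on the lower side was Il18, with 45.6, 119.9, 98.7 and 5.79 CPM, above skin in both papillomas and 7.86-fold lower in the tumour (6.89 to 9.01).

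Growth-related early genes included Hmga2, an oncofetal chromatin protein gene, at 0.543, 46.8, 39.4 and 172 CPM in skin, papilloma 1, papilloma 2 and tumour. Cdkn2a, the locus of the cell cycle inhibitors p16 and p19Arf, stood at 0.241, 14.0, 11.8 and 96.5 CPM, a ratio of 400 (229 to 774) whose size is not exact either, with skin at 0.25% of the highest library. Pitx1, a homeobox gene of the hind limb, stood at 0.925, 156, 87.1 and 210 CPM. In all 3 the lesions lay well apart from skin, and for Hmga2 and Cdkn2a the tumour was also well above both papillomas. Nrg1, a ligand gene for the EGF receptor family, was counted at 2.17, 25.6, 16.4 and 96.9 CPM.

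Among the early higher genes was also Arg1, which encodes the arginine-degrading enzyme of alternatively activated macrophages and of some epithelia. Its levels were 54.4 CPM in skin, 953 and 566 CPM in the papillomas and 5876 CPM in the tumour, 108 times the skin level (104 to 112). In the basal keratinocyte list, 7 of 12 members met the rule as higher, 4 of them early and 3 intermediate, and Krt15 as lower. Krt15, a keratin gene of resting basal and bulge cells, was counted at 1342, 144, 205 and 236 CPM, high in skin alone. Krt5 missed the rule, with 3359, 7946, 6540 and 12171 CPM, 3.62 times the skin level in the tumour.

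**Figure D2:**
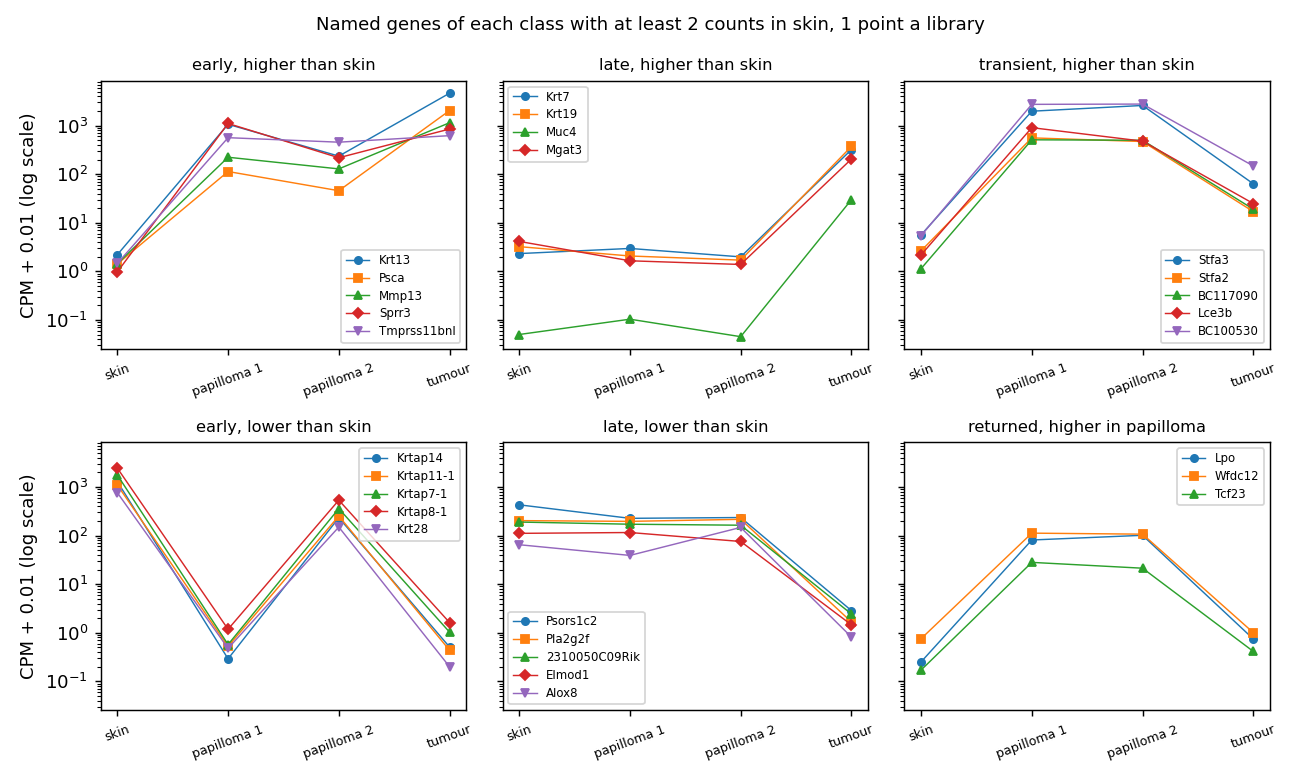
Levels in the 4 biopsies (x axis) are drawn on a log axis as CPM with 0.01 added, 1 point a library and 1 line a gene, in panels by class and direction. In the early panels both papillomas have left the skin level (Krt13 at 1063 and 235 CPM against 2.19 in skin), in the late panels they stay near it (Krt7 at 2.95 and 1.98 CPM against 2.31), and in the transient panel they exceed the tumour (Stfa3 at 1976 and 2594 CPM against 63.4).

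The early lower genes with the largest ratios were hair genes. All 5 named genes, Krtap14, Krtap11-1, Krtap7-1, Krtap8-1 and Krt28, encode proteins of the hair shaft or root sheath, and the Krtap genes belong to a family of close copies whose single values are uncertain. Krtap8-1, a keratin-associated protein gene, was counted at 2445 CPM in skin, 1.17 CPM in papilloma 1, 535 CPM in papilloma 2 and 1.61 CPM in the tumour. Krt28, an inner root sheath keratin gene, was counted at 763, 0.469, 149.7 and 0.190 CPM. Papilloma 1 and the tumour were close to 0 and papilloma 2 lay in between. Skin exceeded the tumour 1515-fold (1195 to 1951) for Krtap8-1 and 4017-fold (2038 to 9305) for Krt28, and 2591-fold for Krtap14, 2567-fold for Krtap11-1 and 1730-fold for Krtap7-1. The tumour levels of all 5 were at most 0.0660% of the skin level, so the sizes of these ratios are not exact either.

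All 19 hair shaft genes met the rule as lower, 8 as early and 11 as intermediate, as did 9 of 10 inner root sheath genes. Over the 13 hair genes that reached 500 CPM in skin, the median level was 0.0578% of skin in papilloma 1, 24.3% in papilloma 2 and 0.066% in the tumour. A level of 24.3% sits next to the 4-fold limit, so for most of these genes the value of papilloma 2 set whether they were early or intermediate. Without papilloma 2 the early lower class held 508 genes, and without papilloma 1 it held 350. The hair gene level of papilloma 2 moved with these counts, and its part in the class of other genes was not tested. The melanocyte list, 8 of whose 10 members met the rule as lower, showed the same pattern. Dct, a pigment enzyme gene, was counted at 157, 4.31, 48.4 and 0.380 CPM, and Tyr, the tyrosinase gene, at 27.1, 0.0938, 14.3 and 0.0949 CPM.

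Most skeletal muscle genes and many fat genes were lower in the papillomas and in the tumour. Of 16 skeletal muscle genes, 15 met the rule as lower, 11 as early and 4 as intermediate, with list medians of -2.39, -3.14 and -4.04 in papilloma 1, papilloma 2 and tumour. Acta1, the skeletal muscle actin gene, was counted at 4222, 738, 475 and 297 CPM, 14.2-fold lower in the tumour than in skin. Of 15 adipocyte genes, 9 met the rule as lower, and Adipoq, which encodes the fat hormone adiponectin, was counted at 82.7, 5.06, 12.9 and 8.17 CPM. Skin was the highest library for Acta1 and Adipoq. Other fat genes differed from this: Fabp4, a fatty acid binding protein gene that endothelial cells also express, stood at 348.5, 1249, 603 and 746 CPM, above skin in every lesion. Lipe, a lipase gene, stood at 77.7, 168, 108 and 32.4 CPM and Cidea, a lipid droplet gene, at 49.0, 58.9, 42.8 and 13.5 CPM, neither of them below skin by 4-fold. The Wnt pathway list had 9 lower members of 24 and 1 higher, among them Lef1, a Wnt transcription factor gene of the hair follicle, at 25.9, 0.891, 7.35 and 0.475 CPM. Gli1, a hedgehog target, was counted at 71.5, 2.20, 10.8 and 0.214 CPM. Both genes were highest in skin and higher in papilloma 2 than in papilloma 1, as the hair genes were.

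The late higher genes included keratins of simple, that is single-layered, epithelia and mucin genes. Krt7 (chromosome 15, 101242834 to 101258237 on mm9) was counted at 2.31 CPM in skin, 2.95 and 1.98 CPM in the papillomas and 320.1 CPM in the tumour, 138 times the skin level (115 to 168). Krt19 stood at 3.22, 2.06, 1.70 and 372 CPM, a ratio of 115 (98.8 to 136). Skin and both papillomas lay close together for each gene, and the tumour stood alone.

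Of the 10 simple epithelial genes, 9 reached 10 CPM and 5 met the rule, all 5 as late higher. Their list medians were -0.27 and -0.45 in the papillomas and 2.79 in the tumour. Krt8 and Krt18, which encode a keratin pair of simple epithelia, were counted at 1.29, 0.469, 0.600 and 34.6 CPM and at 6.32, 5.25, 5.72 and 92.9 CPM. Cldn7, a tight junction gene, was counted at 0.724, 0.938, 1.13 and 31.1 CPM. In mSCC-20 and mSCC-38 the 5 genes differed: Krt8 was at 198 and 30.8 CPM and Krt18 at 305 and 168 CPM, but Krt7 at 1.56 and 0.211 CPM, Krt19 at 70.8 and 2.41 CPM and Cldn7 at 14.2 and 0 CPM. Krt7, Krt8 and Krt18 lie within 1 cluster of late higher genes on chromosome 15.

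The glandular and mucin list had 27 members, of which 10 reached 10 CPM. Of these, 9 met the rule as higher, 4 early, 3 late, 1 transient and 1 split. The late ones were the transmembrane mucin genes Muc1, at 0.523, 0.516, 0.777 and 15.4 CPM, Muc4, at 0.0402, 0.0938, 0.0353 and 29.9 CPM, and Muc20, at 0, 0.188, 0.106 and 18.4 CPM. Skin had 2 counts of Muc4, 0.135% of the highest library, for a ratio of 742 (205 to 6135) whose size is not exact. It had no count of Muc20, so the tumour was at least 306-fold higher. The early ones included Aqp5, a water channel gene of secretory glands, at 1.35, 95.5, 54.7 and 195 CPM, and Elf3, an epithelial transcription factor gene, at 3.06, 50.9, 50.1 and 310.3 CPM. In 11 members no count was seen in skin and in 4 none in the tumour. Of 16 salivary and sweat gland genes only 1 reached 10 CPM, so the others could not meet the rule. That gene, Car6, stood at 135, 6.61, 15.6 and 0.285 CPM and was lower in the tumour.

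The split gene Ltf, for the iron-binding protein lactoferrin of glands and neutrophil granules, was counted at 1.27 CPM in skin, 12.3 CPM in papilloma 1, 2.33 CPM in papilloma 2 and 2023 CPM in the tumour. That is 1596 times the skin level (1247 to 2077). The size of this ratio is not exact, since skin lay under 0.0858% of the tumour level, the hair gene upper quartile given above. Only the tumour was high. Ltf belonged to both the glandular and the neutrophil list, and in mSCC-20 and mSCC-38 it was at 1.17 and 0.332 CPM. Among neutrophil genes outside the glandular list, Csf3r, the receptor gene for granulocyte colony-stimulating factor, was counted at 1.77, 6.24, 4.87 and 34.3 CPM, and Cxcr2, a chemokine receptor gene, at 1.35, 34.3, 40.7 and 25.6 CPM. The neutrophil list did not move as one. Of its 13 members 6 met the rule as higher and none as lower, while Il1r2, a decoy receptor gene, stood at 59.6, 29.0, 27.2 and 23.2 CPM and the granule gene Camp at 0.302, 0.0938, 0.318 and 0.0475 CPM. The part of neutrophils in the level of Ltf was not tested.

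Further late higher genes were Mgat3, which encodes a glycan-branching enzyme, and Tspan1, a tetraspanin gene named here after its values were seen. Mgat3 stood at 4.12, 1.64, 1.38 and 205 CPM, a ratio of 49.7 (43.3 to 57.4), and Tspan1 at 1.19, 0.141, 0.459 and 74.4 CPM. Mgat3 was 1 of 10 late higher genes that were at least 2-fold below skin in both papillomas. Dusp4, a phosphatase gene that damps MAP kinase signalling, stood at 8.99, 9.80, 8.30 and 93.4 CPM. It belonged to a Ras and MAP kinase output list of 20 genes in which 7 met the rule as higher, 3 early, 2 late and 2 intermediate, and none as lower.

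Some interferon-response genes were a further late group. Of 23 members, 13 reached 10 CPM and 7 met the rule as higher, 6 of them late and 1 early, with none lower. Summed levels were 360.4, 309 and 312 CPM in skin and the papillomas and 1298 CPM in the tumour. The list medians were -0.51 and -0.56 in the papillomas and 1.20 in the tumour. Irf7, which encodes a regulator of type I interferon, was counted at 21, 8.77, 11.8 and 169.8 CPM, 8.09 times the skin level in the tumour (7.58 to 8.64). Cxcl9, a chemokine gene induced by interferon gamma, stood at 4.83, 3.33, 5.16 and 123 CPM, 25.5 times the skin level (22.4 to 29.2).

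The 3 genes whose promoters are printed above for the paired TTTC motif are members of the late higher class, so that class fixed their course. Of them, Gbp2 is in the interferon-response list and Serpinb9 and Tgtp1 are not. Gbp2 was counted at 33.5, 19.03, 21.1 and 233 CPM in skin, papilloma 1, papilloma 2 and tumour. Serpinb9 stood at 6.80, 9.56, 7.66 and 174 CPM and Tgtp1 at 0.583, 0.281, 0.177 and 12.0 CPM. In each, only the tumour stood apart. In the T and NK cell list, 2 of 22 members reached 10 CPM, none met the rule, and the summed level was 53.4 CPM in skin and 63.1 CPM in the tumour. Cd3e, which encodes a chain of the T cell receptor complex, was counted at 10.9, 2.34, 1.45 and 3.70 CPM, highest in skin. Some members below 10 CPM were highest in the tumour. Cd8a, a gene of cytotoxic T cells, stood at 0.322, 1.36, 0.389 and 8.14 CPM, and Gzmb, the granzyme B gene, at 0.201, 0.891, 0.883 and 6.17 CPM. Whether immune cells in the tumour biopsy carried the interferon-response genes was not tested.

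The late lower genes included much of the terminal programme of the epidermis. Of 18 suprabasal differentiation genes, 12 met the rule as lower, 10 of them late and 2 intermediate, and none as higher. Their summed levels were 13190 CPM in skin, 41123 and 32557 CPM in the papillomas and 1490 CPM in the tumour. The list medians were 1.76 and 1.37 in the papillomas and -2.52 in the tumour, so the list stood above skin in the papillomas and below it in the tumour. The tumour median was -2.81 with total-count scaling.

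Krt10, a suprabasal keratin gene, was counted at 4647 CPM in skin, 10827 and 8326 CPM in the papillomas and 94.6 CPM in the tumour, which was 49.1-fold lower than skin (47.6 to 50.7). Krt1, which encodes its partner, stood at 1368, 10269, 9757 and 96.8 CPM. Lor, the gene of the main envelope protein loricrin, stood at 1403, 2806, 1987 and 76.7 CPM. Both papillomas exceeded skin and the tumour fell short of it for each gene. Casp14, a protease gene of cornification, had 140 CPM in skin, 1550 and 1538 CPM in the papillomas and 25.9 CPM in the tumour. Klk5, a kallikrein gene of desquamation, stood at 101.5, 268, 241 and 1.78 CPM.

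Krt1, Casp14 and Klk5 were among 41 of the 213 late lower genes that were at least 2-fold above skin in both papillomas. Flg2, a filaggrin-family gene, was different, with 787, 177, 204 and 2.30 CPM, lower in the papillomas already and 342-fold lower in the tumour (280 to 422). Ivl, the involucrin gene, stood at 154, 275, 243 and 156 CPM, so skin and tumour were at the same level.

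The 5 late lower genes with the largest ratios were Psors1c2, Pla2g2f, 2310050C09Rik, Elmod1 and Alox8. Psors1c2, an epidermal gene of the psoriasis susceptibility region, was counted at 429, 226, 235 and 2.85 CPM, 151-fold lower in the tumour (126 to 182). Pla2g2f, a secreted phospholipase gene of the upper epidermis, stood at 203, 196, 216 and 1.66 CPM, and 2310050C09Rik at 189.8, 171, 163 and 2.42 CPM. Alox8, a lipoxygenase gene, stood at 64.8, 39.1, 147 and 0.807 CPM, and Elmod1 at 111, 116, 75.6 and 1.45 CPM. In all 5 the papillomas were less than 2-fold below skin, and the tumour was at least 76.7-fold below it.

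Markers of other cell types were also among the late lower genes. The mast cell protease genes Cma1, at 20.7, 17.4, 14.4 and 4.01 CPM, and Cpa3, at 19.2, 17.8, 18.1 and 4.11 CPM, were near skin in the papillomas and lower in the tumour. Of the 13 mast cell genes 4 met the rule as lower and 1 as higher. The higher one was Hdc, the histamine-forming enzyme gene, at 3.14, 13.3, 8.55 and 14.2 CPM, and the tryptase gene Tpsab1 stood at 0.644, 13.7, 14.8 and 9.80 CPM, also above skin in the lesions. Cd163, a scavenger receptor gene of resident macrophages, stood at 26.2, 16.97, 31.0 and 3.75 CPM. Itgam, an integrin gene of myeloid cells, went the other way with 11.4, 15.7, 16.2 and 81.0 CPM, so the macrophage and monocyte list held both 6 higher and 2 lower members among 20.

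The transient higher genes with the largest overshoot encoded protease inhibitors and envelope proteins. Stfa3, which encodes a stefin A inhibitor of cysteine proteases, was counted at 5.61 CPM in skin, 1976 and 2594 CPM in the papillomas and 63.4 CPM in the tumour. The tumour was 11.3 times skin (9.98 to 12.8) and the papilloma mean 36.1 times the tumour. The skin level was 0.216% of the highest library, so the size of the ratio to skin is not exact. Lce3b, a late envelope gene, stood at 2.17, 906, 478 and 24.9 CPM, and the stefin-like gene BC100530 at 5.43, 2734, 2770 and 148 CPM. The neighbours Stfa2, at 2.64, 559, 469.6 and 16.97 CPM, and BC117090, at 1.13, 510, 499 and 19.04 CPM, are near copies of Stfa3 and BC100530, so the value of any 1 of them is uncertain.

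The stress keratin and calprotectin list had 15 members, 14 at 10 CPM, of which 10 met the rule as higher, 8 as transient and 2 as early. Its medians were 6.85, 6.39 and 3.77 in papilloma 1, papilloma 2 and tumour. Krt16, a keratin gene of wounded and hyperplastic epidermis, was counted at 40.7, 12301, 7061 and 1927 CPM. S100a8, for a subunit of calprotectin, stood at 18.4, 1196, 1774 and 257 CPM. Slpi, a leukocyte protease inhibitor gene and the transient member of the glandular and mucin list, stood at 7.18, 4834, 3273 and 878 CPM. The tumour lay between skin and papilloma for all 3. Sprr2d, whose promoter is printed above, was counted at 5.31, 2033, 1753 and 607 CPM. Sprr2i, which is not in the stress keratin list, was at 1.81, 1091, 713 and 133 CPM. Krt6a was early rather than transient, with 455.5, 23682, 14761 and 11470 CPM, and its reads could be shared with Krt6b.

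In the lower direction 2 genes were transient, a count that was 23 without papilloma 2 and 0 with 2 CPM added or an 8-fold rule. Ifitm6, an interferon-induced transmembrane gene, was counted at 22.5 CPM in skin, 0.563 and 0.459 CPM in the papillomas and 2.63 CPM in the tumour, and Cxcl13, a B cell chemokine gene, at 16.5, 0.985, 0.989 and 3.58 CPM. The 2 genes were 8.54-fold (7.02 to 10.5) and 4.61-fold (3.87 to 5.53) lower in the tumour than in skin.

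Some genes stood apart from skin in the papillomas and near skin in the tumour, so they did not meet the tumour against skin rule. With 0.5 CPM added to each side, both papillomas were at least 4-fold above skin with the tumour within 2-fold of it for 57 genes, and below it for 10. Lpo, which encodes lactoperoxidase, was counted at 0.241, 81.1, 101.3 and 0.736 CPM in skin, papilloma 1, papilloma 2 and tumour, and Wfdc12, a secreted inhibitor gene, at 0.744, 112, 107 and 0.997 CPM. Tcf23, a helix-loop-helix gene, stood at 0.161, 28.1, 21.3 and 0.404 CPM. The papillomas were far above skin and tumour in all 3. Without the added 0.5 CPM, the tumour was 3.05 times skin for Lpo (1.52 to 6.52) and 2.51 times for Tcf23, so these low genes are within 2-fold only through it. The skin level of Lpo was 0.238% of the highest library, so its ratio is not exact. In the other direction Rab11fip4, which encodes an endosome protein, stood at 17.1, 2.58, 2.01 and 14.1 CPM, G0s2, a lipolysis inhibitor gene, at 10.7, 1.41, 1.52 and 5.36 CPM, and Cd82, a tetraspanin gene, at 149, 25.9, 28.2 and 85.1 CPM.

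**Figure D3:**
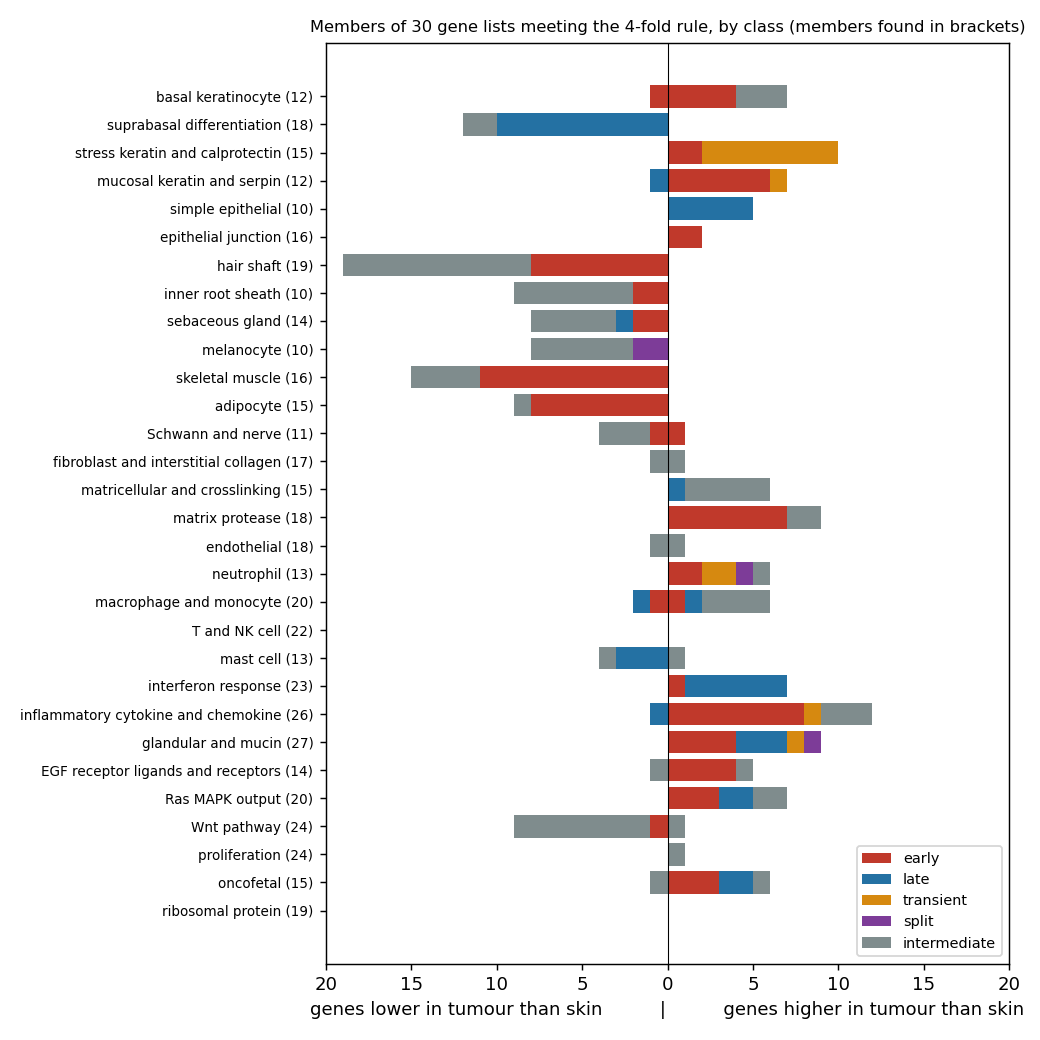
Bars give, for 30 gene lists, the number of members at least 4-fold lower (left) or higher (right) in the tumour than in skin, coloured by class, with the number of members found in brackets. All 19 hair shaft genes are on the left, the suprabasal bar on the left is mostly late (10 of 12), the simple epithelial bar on the right is late (5 of 5), and the stress keratin bar is mostly transient (8 of 10).

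Other lists had few members that met the rule. Over all 11114 models at 10 CPM, 5.23% met it as higher and 9.11% as lower. Counts as small as those of the proliferation, ribosomal and fibroblast lists are therefore not read as a result about these lists. Of 24 proliferation genes 1 met it and 20 were above skin, with medians of 0.81, 0.67 and 0.58 in papilloma 1, papilloma 2 and tumour, beside a tumour median of 0.11 over all models at 10 CPM. None of 19 ribosomal protein genes met it. Of 17 fibroblast and interstitial collagen genes 1 was higher and 1 lower, with a tumour median of 0.43. Dcn, the gene of the collagen-binding proteoglycan decorin, was the lower one, at 859, 212, 270 and 83.4 CPM. The matricellular list, by contrast, had 6 higher members of 15 and none lower, and its median was 0.74, 0.60 and 1.79. Tnc, which encodes tenascin C, stood at 89.5, 347, 257 and 1090 CPM, and Spp1, the osteopontin gene, at 3.94, 16.8, 22.3 and 174.5 CPM. The endothelial list had a tumour median of 0.02, which became -0.26 with total-count scaling and -0.03 with DESeq2 size factors.

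The cultured cells gave a readout that the classes did not use. Of all models at 10 CPM in skin or tumour, 76.2% reached 10 CPM in mSCC-20 and 79.3% in mSCC-38. The shares were 58.5% and 59.1% for early higher genes, 39.1% and 44.3% for late higher genes, and 20% and 22.5% for transient higher genes. For intermediate higher genes they were 69.6% and 72.5%. Early lower genes reached 10 CPM in 5.0% and 6.6% and late lower genes in 19.7% and 17.8%. Lower genes met the 10 CPM limit through skin, while the share over all models counts genes at that limit in either library. Low shares of lower genes in cells from a tumour were therefore partly set by the rule, and no conclusion is drawn from them. In mSCC-20 and mSCC-38 the interferon-response gene Gbp2 was at 4.12 and 68.8 CPM, and Krt10 at 10.1 CPM in both. The 16 skeletal muscle genes summed to 42.9 and 21.8 CPM in the cultures against 889 CPM in the tumour, and the part of cell mixture in these shares was not tested.

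**Figure D4:**
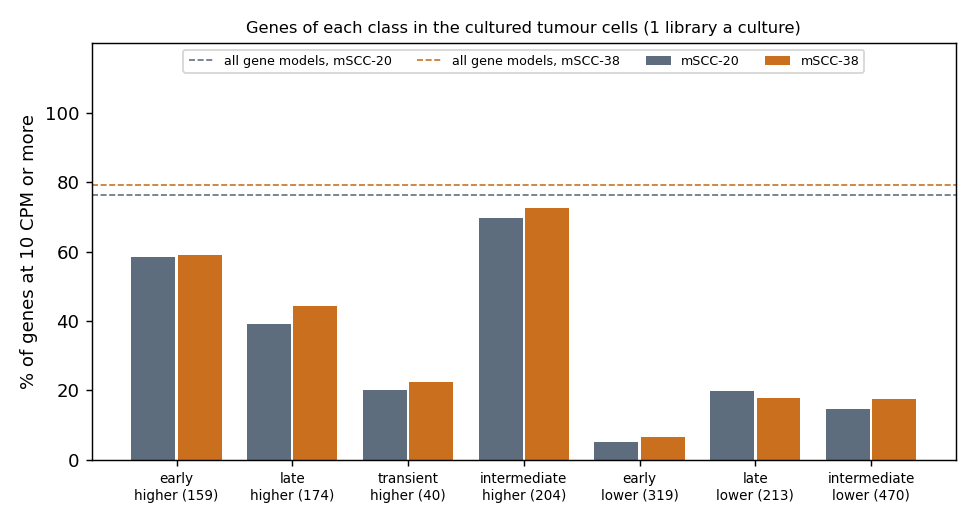
Bars give the percentage of genes of 7 classes (x axis, number of genes in brackets; the split classes and the 2 transient lower genes are not drawn) at 10 CPM or more in mSCC-20 and mSCC-38, 1 library each, and dashed lines the same over all gene models at 10 CPM in skin or tumour. The drawn bars lie under the lines at 76.2% and 79.3%, from 72.5% for intermediate higher genes in mSCC-38 to 5.0% for early lower genes in mSCC-20. Lower genes met the 10 CPM limit through skin, so their low bars were partly set by the rule.

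Some members of a class were neighbours on the genome, each within 1 Mb of the next, and these groups are given as a description with no comparison to other genes. Chromosome 3 carried 16 late lower genes between 91884193 and 93137494 on mm9, with Lor, Hrnr and the Lce1 family, and inside that stretch 10 transient higher genes between 92143062 and 92797348, with the Sprr2 genes and Lce3b. Further clusters were 6 transient kallikrein genes on chromosome 7 (50945788 to 51087397), 4 transient stefin genes on chromosome 16 (36321751 to 36455478) and 5 late higher serpin genes on chromosome 13 (33057382 to 33587869). In the last, Serpinb9f had no count in skin or papilloma and 15.9 CPM in the tumour, at least 264-fold higher, a value that near copies in this cluster make uncertain. Early higher clusters were 5 Tmprss11-type genes (86731879 to 87174832) and 5 chemokine and growth factor genes with Cxcl1, Cxcl2, Cxcl3, Cxcl5 and Epgn (91188325 to 91464238), both on chromosome 5. Early lower genes clustered most on chromosome 11, where 18 lay between 98245125 and 99997263 among the hair keratin and keratin-associated genes.

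By chromosome, the median log2 ratio of tumour to skin was 0.63 over the 680 models of chromosome 1, of which 72.4% were above skin. It lay between -0.13 (chromosome 9) and 0.30 (chromosome 18) on the others. In the papillomas the median of chromosome 1 was 0.06 and 0.05, and chromosome 7 had the highest medians, 0.26 and 0.24. The shares of genes meeting the rule were higher among short models. Over 4 groups of about equal size from the shortest to the longest, the median was 0.01, 0.10, 0.15 and 0.16, the share higher 6.26%, 5.55%, 4.93% and 4.17%, and the share lower 11.7%, 9.01%, 7.78% and 7.99%.

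**Figure D5:**
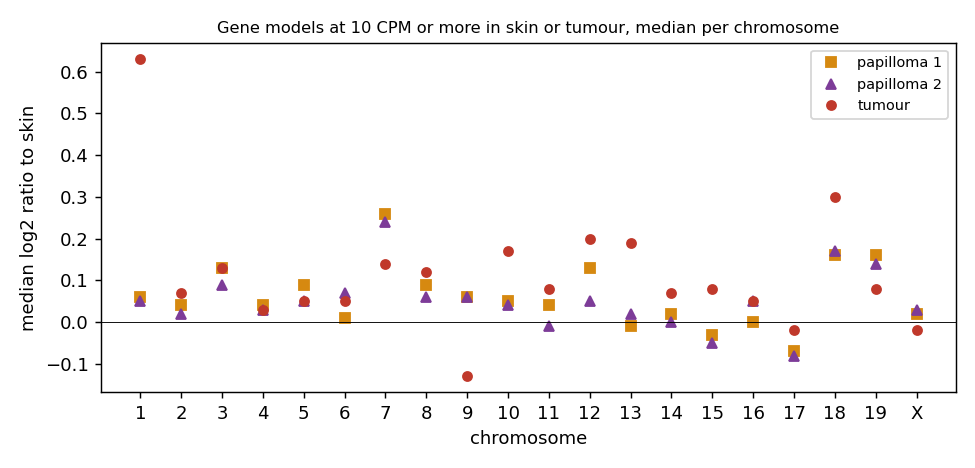
The median log2 ratio to skin over gene models at 10 CPM or more in skin or tumour is drawn for each chromosome (x axis), with 1 symbol for each of papilloma 1, papilloma 2 and tumour. The tumour point of chromosome 1 stands at 0.63 while the papilloma points there are at 0.06 and 0.05, and the highest papilloma points are those of chromosome 7 at 0.26 and 0.24.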

How the data were processed

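Per the labels' protocols, the RNA of all 6 libraries came from a Qiazol and column extraction, and a SOLiD kit meant for small RNA was used to prepare it for sequencing. The authors deposited 1 table of 23726 gene models with a raw count and an RPKM value per library, and, per the submitters' processing notes, used build mm9. How reads were aligned and counted, and whether strand was used, is not given in the sources used. Antisense, overlapping and near-copy genes may therefore share reads. The count columns are unnormalised per the file headers, and they summed to 25140489 to 42992597 counts per library. The deposited RPKM values are scaled by length and total and were used only to check the counts. No count column of other samples was in the table (0 columns).

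Counts were scaled to CPM with TMM factors over the 6 libraries (edgeR 4.0.16, limma 3.58.1 and R 4.3.3), which were 1.20 for skin, 0.848 and 0.944 for the papillomas and 0.980 for the tumour, and ratios had 0.5 CPM added. The other steps used Python 3.11.15 with pandas 2.3.3, scipy 1.17.1 and matplotlib 3.10.9. Tumour and skin have 1 library each and were compared by the rule of size without a test. In the direction of the tumour, transient genes had both papillomas at least 2-fold past the tumour, early genes had both at least 4-fold from skin, and late genes had both under 2-fold. Split genes had 1 papilloma at 4-fold and the other under 2-fold, and intermediate genes were the rest. Named genes were the 5 with the largest ratio per class and direction (for transient genes the largest overshoot), 3 per direction for genes back near skin, and defining, highest or most changed members of 49 gene lists, without duplicate models, pseudogenes and chromosome 18. Some genes that meet that rule are not reported here. Genes outside it were picked with their values in view. The classes, lists and named genes were chosen with earlier results of these data known. Alternatives changed the scaling, the added CPM, the minimum level, the class limits and the papillomas used, or fitted the 4 biopsies with edgeR or DESeq2 1.42.0. The edgeR step was tested on simulated data.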

Additional observations from a re-analysis of the deposited data

How the results depend on the processing

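Of the class and total counts under the alternatives, 56 stayed within 1.5 times the values given above and 20 did not. An 8-fold rule gave 273 higher and 604 lower genes, with 60 late higher, 90 late lower and 0 transient lower genes, since fewer genes meet a stricter rule. Total-count scaling gave 554 early lower genes, 318 of them among the 319, and 17 genes back near skin from below. It gave 166 late higher and 210 late lower genes, counts like those above but with other members. Of the 174 late higher genes 118 kept their class, and of the 213 late lower genes 155. With 2 CPM added there were 0 transient lower genes and 3 genes back near skin from below. A limit of 1.5-fold for being near skin gave 37 and 4 genes back near skin from above and below, and an overshoot of 1.5-fold gave 5 transient lower genes. Leaving out 1 papilloma at a time gave 166 to 185 early higher, 350 to 508 early lower, 179 to 217 late higher, 231 to 277 late lower, 41 to 52 transient higher and 3 to 23 transient lower genes. It gave 63 to 92 and 11 to 42 genes back near skin from above and below. The highest of these values for early lower (508), transient lower (23) and genes back near skin (92 and 42) were those without papilloma 2. At a Benjamini-Hochberg adjusted p under 0.05, edgeR called 2702 higher and 2790 lower of 16353 genes and DESeq2 2600 and 2340 of 15721. Both fits take the lone skin and tumour libraries to vary as the 2 papillomas do, with 1 residual degree of freedom. List medians changed sign with total-count scaling for smooth muscle and pericyte (-0.21), endothelial (-0.26), MHC class II (-0.07), AP-1 (-0.04), Notch (-0.09) and axon guidance genes (-0.24). With DESeq2 size factors they did so for endothelial (-0.03) and axon guidance genes (-0.01). For the remaining changes the cause was not tested. No paired analysis was possible because skin and tumour have 1 library each. Depth limits genes with few counts in 1 library, such as Muc4 with 2 counts in skin, whose ratio has a wide interval.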

Other observations

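Some genes of other groups stood far above skin in the tumour and fell in the intermediate class, and were picked after their values were seen. For Ppbp and Msln, papilloma 2 was less than 2-fold above skin. Ppbp, a chemokine precursor gene known from platelets, was counted at 7.22 CPM in skin, 27.7 and 8.65 CPM in papillomas 1 and 2 and 2911 CPM in the tumour, 403 times skin (363 to 448). Skin lay under 0.29% of the tumour level, the highest hair gene value in the tumour, so this ratio is not exact. Col8a1, a short-chain collagen gene, stood at 8.63, 32.3, 35.7 and 347 CPM, and in mSCC-20 and mSCC-38 at 279 and 183 CPM. Msln, the mesothelin gene, stood at 0.322, 1.45, 0.600 and 36.2 CPM, and in the cultures at 286 and 172 CPM. Of the oncofetal list, 6 of 15 members met the rule as higher and 1 as lower. Lin28b, which encodes an RNA-binding protein that blocks let-7, stood at 0.0604, 0.703, 0.918 and 23.3 CPM, with 3 counts in skin and a ratio of 386 (132 to 1876). That ratio is not exact either, with skin under 0.29% of the tumour level. The imprinted genes Igf2 and H19 lay apart, Igf2 at 8.73, 4.41, 2.83 and 44.4 CPM and H19 at 110.6, 48.0, 35.3 and 23.8 CPM.

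Of 14 sebaceous gland genes, 8 met the rule as lower and none as higher. Scd3, a fatty acid desaturase gene, was counted at 48.6, 1.36, 3.18 and 1.73 CPM in skin, papilloma 1, papilloma 2 and tumour, while Elovl3, a fatty acid elongase gene, stood at 59.95, 35.8, 51.5 and 3.18 CPM. Among 22 glycolysis and hypoxia genes 5 were higher and none lower. Slc2a1, the glucose transporter gene, stood at 96.7, 633, 582 and 620.0 CPM, at a like level in all lesions. Lgr5 and Lgr6, receptor genes of follicle stem cells, were both below skin in the papillomas. Lgr5 stood at 77.9, 5.34, 17.7 and 3.73 CPM and Lgr6 at 21.9, 2.81, 4.94 and 78.3 CPM, so that Lgr6 was above skin in the tumour (3.58-fold, short of the rule).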
